A study of Mus musculus with 2 samples.

Results

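Blood lineage cells without C1q were cells of the mouse periosteum, the connective tissue sheath of bone, that carried leukocyte transcripts and lacked the complement C1q transcripts of tissue macrophages. They were selected on measured values: kept cells with 500 to 5000 detected genes and under 25% mitochondrial UMIs (unique molecular identifiers, each a captured mRNA molecule) that had at least 5 UMIs over *Ptprc* (CD45), *Tyrobp*, *Cd52* and *Coro1a* and fewer than 5 over *C1qa*, *C1qb* and *C1qc*. This gave 662 of 12212 kept cells. The tissue was taken from the femurs and the tibias of mice aged 8 weeks and was measured by BD Rhapsody whole-transcriptome sequencing in 2 libraries, 1 per genotype. The control library was from Prx1 Cre; Ai9/+ mice, in which Cre driven by the limb mesenchyme gene Prx1 (*Prrx1*) turns on a red reporter. The other was from Prx1 Cre; Ai9/+; Piezo1 fl/fl mice, which carry the same Cre and reporter and in addition floxed alleles of the mechanosensitive channel gene *Piezo1*. Before capture the bones were digested with enzymes, red blood cells were lysed and Prx1 reporter-positive cells were sorted, so that leukocytes were present in spite of the sort and all shares below are shares of sorted cells. With 1 library per genotype no test was possible. Intervals are exact 95% intervals for counting error only, and a difference between the libraries is not a difference between the genotypes.

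Neutrophils form in the bone marrow from granulocyte-monocyte progenitors. Their proteins are made in waves: primary granule proteases such as elastase and myeloperoxidase in progenitors, secondary granule proteins such as lactoferrin and cathelicidin in dividing and early postmitotic cells, and gelatinase granule proteins, chemokine receptors and cytokines in later stages. Mature neutrophils carry little RNA and are short-lived. Dendritic cells and monocytes present antigen on class II major histocompatibility (MHC) proteins or give rise to cells that do, and osteoclasts, which arise from the same myeloid line, resorb bone.

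In all, 28030299 UMIs were counted over 6118 barcodes of the control library, and 32337308 over 7469 barcodes of the Piezo1 fl/fl library. In both, *Xist* had no UMI in any blood lineage cell, while the Y-linked *Ddx3y* was at 228 CPM (UMIs per 1000000 UMIs of the cells summed) in control cells and 247 CPM in Piezo1 fl/fl cells. *Piezo1* had 2 UMIs in control cells and 1 UMI in Piezo1 fl/fl cells. The tags lie at the 3′ end of the transcript and may fall outside the floxed exons. The Cre is driven by a limb mesenchyme gene, and whether *Piezo1* was deleted in these blood lineage cells was not tested. The counts therefore check nothing. The libraries shared 50 barcodes, of which 0 belonged to the selected control cells and 2 to the selected Piezo1 fl/fl cells.

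The cells made up 97 of 5478 kept cells in the control library, a share of 1.77% (1.44% to 2.16%). In the Piezo1 fl/fl library they made up 565 of 6734, a share of 8.39% (7.74% to 9.08%). The share was 4.74-fold higher in the Piezo1 fl/fl library (3.81 to 5.94), and the ratio stayed between 3.94 and 5.05 under the 6 other limits tried. Cells that met the same leukocyte limit but had 5 or more C1q UMIs (C1q cells) went the other way: they were 303 control cells (5.53%, 4.94% to 6.17%) and 291 Piezo1 fl/fl cells (4.32%, 3.85% to 4.83%), a ratio of 0.781 (0.663 to 0.921). The selected cells were shallow in both libraries, with medians of 1895 and 1896 UMIs and 756 and 738 genes, against 4115 and 3863 UMIs in kept cells below the leukocyte limit. Their median mitochondrial share was 0.745% and 0.417%, against 5.11% and 5.06%. Under 1000 genes lay 68.0% of the control and 75.0% of the Piezo1 fl/fl cells. The study's methods give 1000 genes as the lower limit for a different set of cells, from uninjured and fractured femurs. From its periosteal Prx1 reporter cells the study filtered out blood cells.

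The rule cut through few cells. Sums of 5 or 6 leukocyte UMIs, just inside the limit, were found in 10 control and 38 Piezo1 fl/fl cells, and sums of 3 or 4, just outside, in 12 and 23. The median sum was 13 and 14. No C1q UMI at all was seen in 91 control and 521 Piezo1 fl/fl cells, 2 to 4 UMIs in 4 and 11, and among the cells excluded for C1q only 9 and 12 had 10 or fewer.

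**Figure D1:**
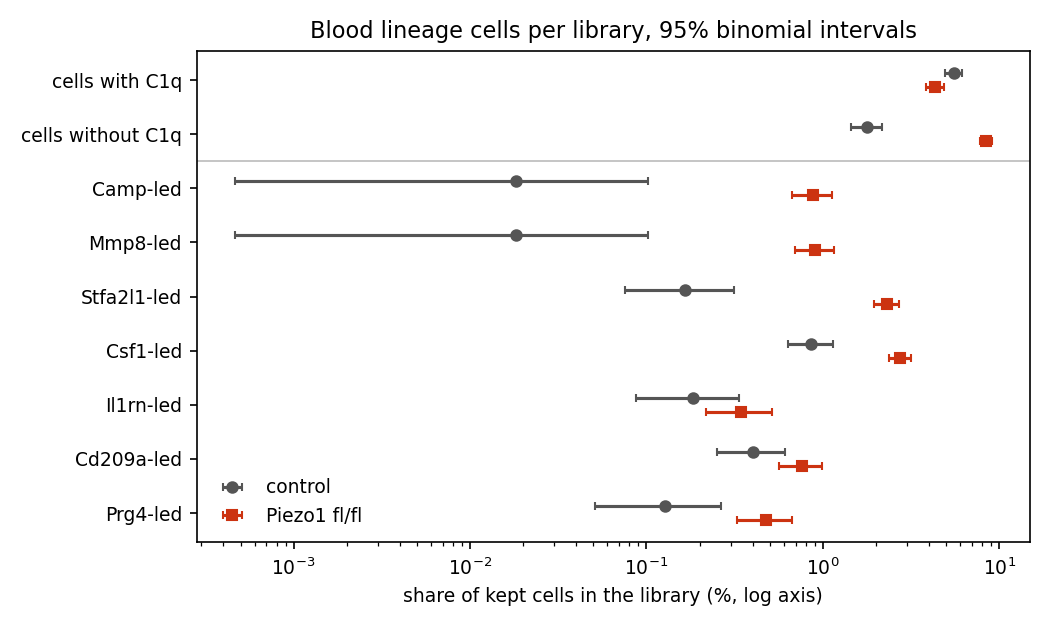
Share of kept cells per library (%, log axis) for blood lineage cells with and without C1q and for the 7 clusters of the latter, with exact 95% binomial intervals; circles are the control and squares the Piezo1 fl/fl library. Cells without C1q were 1.77% and 8.39%, while the Camp-led and Mmp8-led clusters held 1 control cell each.

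The members were grouped into 7 clusters, each called here by a gene among those that led it. Features for the clustering left out the cytokine, chemokine, receptor and other described groups unless they were naming markers, so levels of most of those genes were not used to draw the clusters. In 5 of the clusters, 6 to 10 of the 10 neutrophil markers were detected above their level in kept cells below the leukocyte limit (hereafter the other kept cells), and these were called neutrophil-like: the Camp-led cluster with 60 cells, the Mmp8-led with 62, the Stfa2l1-led with 164, the Csf1-led with 231 and the Il1rn-led with 33. Together they were 550 cells. The Camp-led cluster had as many progenitor as neutrophil genes, 3 each, among its 10 leading genes. The remaining 73 cells of the Cd209a-led and 39 of the Prg4-led cluster were left unnamed.

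Neutrophil-like cells were 68 of 97 control cells (70.1%, 60.0% to 79.0%) and 482 of 565 Piezo1 fl/fl cells (85.3%, 82.1% to 88.1%). The control cells were mostly Csf1-led, 47 of 68. The Piezo1 fl/fl cells were spread along the series, with 59 Camp-led, 61 Mmp8-led, 155 Stfa2l1-led, 184 Csf1-led and 23 Il1rn-led cells, whereas the control library had 1, 1, 9, 47 and 10. The genes that drew these clusters also differ between the libraries, so the sizes describe the same difference as the gene levels below and are not separate from it.

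**Figure D2:**
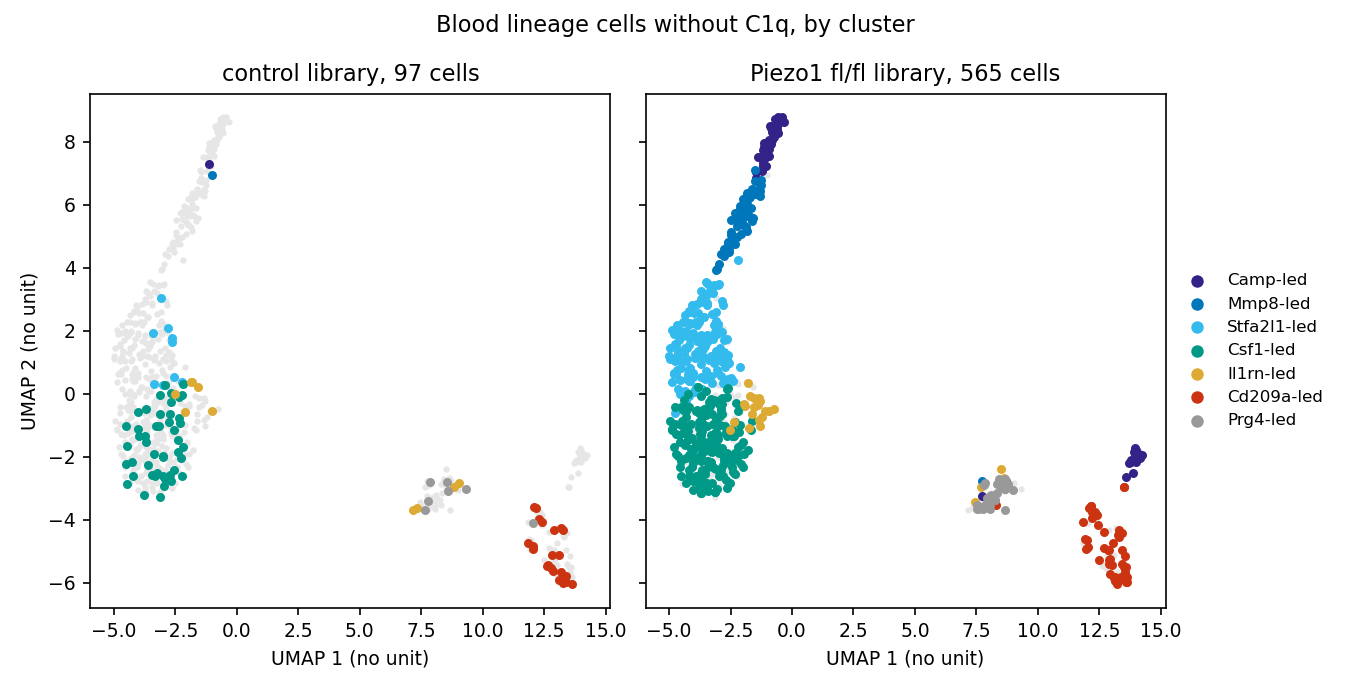
UMAP of the 662 cells, coloured by cluster and split by library, with cells of the other library in light grey; the axes have no unit. The control cells lie mainly in the Csf1-led area, with 1 Camp-led and 1 Mmp8-led cell, while the Piezo1 fl/fl cells also fill the Stfa2l1-led and Mmp8-led areas. Camp-led cells of the Piezo1 fl/fl library lie partly beside the Mmp8-led cells and partly apart from them, near the Cd209a-led cells.

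The clusters were put in order by the neutrophil markers. As naming markers these were not left out of the clustering features. Their differences between clusters are therefore not separate from how the clusters were drawn. *S100a8* and *S100a9*, which encode calprotectin, reached 67844 and 85794 CPM in the Camp-led cluster and 14798 and 25565 CPM in the Csf1-led one. Secondary granule genes differed more widely. *Ngp* (neutrophilic granule protein) was at 65098 CPM in Camp-led, 29173 in Mmp8-led, 1210 in Stfa2l1-led and 44.1 in Csf1-led cells. *Camp* (cathelicidin) was at 11863 CPM in Camp-led, 6.43 in Stfa2l1-led and 2.75 in Csf1-led cells. *Ltf* (lactoferrin) followed the same course, and *Lcn2* (lipocalin 2), which was not used for clustering, stayed at 4761 CPM in the Stfa2l1-led and 1036 CPM in the Csf1-led cluster.

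Late neutrophil genes peaked further along. *Retnlg* (resistin-like gamma) had its highest level in the Mmp8-led cluster, 41323 CPM, against 7243 CPM in the Camp-led and 3738 CPM in the Csf1-led cells. *Mmp8* (neutrophil collagenase) was likewise highest there at 9870 CPM. *Cxcr2*, the receptor for neutrophil-attracting CXC chemokines, was at 383 CPM in Camp-led, 1682 CPM in Stfa2l1-led and 1719 CPM in Csf1-led cells, and *Csf3r*, the receptor for the granulocyte growth factor G-CSF, at 210 CPM in Camp-led and 2016 CPM in Csf1-led cells. These late genes are naming markers too and were not left out of the clustering features. The order from Camp-led to Csf1-led is read from these levels and is not a measured time course.

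The Camp-led cells were of 3 kinds when sorted, after their values were seen, by primary granule and cell cycle UMIs. Of the 60 cells, 3, all from the Piezo1 fl/fl library, had 42 to 658 UMIs of *Mpo* (myeloperoxidase), *Elane* (neutrophil elastase), *Prtn3* (proteinase 3) and *Ctsg* (cathepsin G), together with 9 to 51 UMIs of 6 cell cycle genes. A further 14 cells, again all Piezo1 fl/fl, had 4 to 71 cell cycle UMIs, at most 3 primary granule UMIs and 135221 CPM of secondary granule genes. The other 43, among them the 1 control cell, had at most 1 cell cycle UMI, 123584 CPM of secondary granule genes and 22137 CPM of late genes, against 965 CPM of late genes in the dividing cells. Outside this cluster, 3 or more cell cycle UMIs were found in 11 Cd209a-led and 1 Prg4-led cell and in none of the 490 other neutrophil-like cells.

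**Figure D3:**
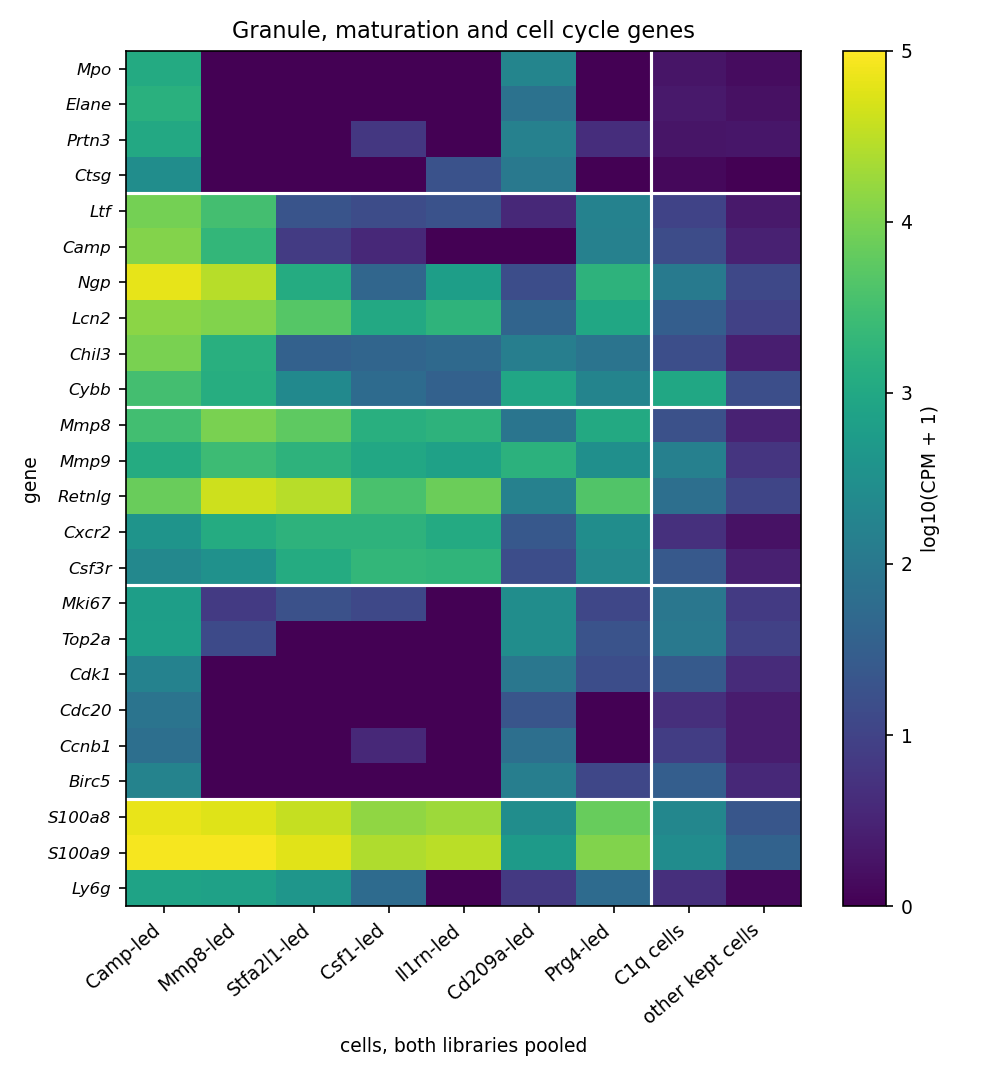
Level of granule, maturation, cell cycle and calprotectin genes and *Ly6g*, as log10(CPM + 1) with both libraries pooled, in the 7 clusters, in C1q cells and in the other kept cells; white lines part the gene groups. Secondary granule genes are brightest in the Camp-led column and *Retnlg* in the Mmp8-led column, and primary granule genes are seen in the Camp-led and Cd209a-led columns.

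Inflammatory cytokines ran opposite to the granule genes. The 15 genes of that list summed to 1136 CPM in Camp-led, 4330 in Mmp8-led, 12057 in Stfa2l1-led and 20461 in Csf1-led cells, against 1232 CPM in C1q cells and 352 CPM in the other kept cells. *Il1b* (interleukin-1 beta) was at 288, 1599, 7656 and 13351 CPM along the 4 clusters and made up most of the sum only in the Stfa2l1-led and Csf1-led ones. *Il1rn*, which encodes the antagonist of the interleukin-1 receptor, went from 103 to 2256 CPM. *Tnf* was at 136 CPM at the Camp-led and 1347 CPM at the Csf1-led end. *Osm* (oncostatin M), a cytokine that acts on osteoblasts, had a different course, at 482 CPM in Camp-led, 1309 in Stfa2l1-led and 815 in Csf1-led cells. Interleukin-6 transcripts were scarce: *Il6* had 5.26 CPM in neutrophil-like cells and 93.1 CPM in the other kept cells, and *Il4*, *Il13* and *Csf2* had no UMI in the members.

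*Csf1* encodes macrophage colony-stimulating factor, which osteoclast precursors need. It was at 2485 CPM in the Csf1-led and 1602 CPM in the Il1rn-led cluster, against 94.7 CPM in Camp-led and 66.9 CPM in Mmp8-led cells. In the other kept cells, which are mainly stromal, it was at 202 CPM, so that the Csf1-led cells had the higher share of their RNA in this gene while holding far fewer UMIs each. Other factors that act on bone were few: *Sema4d* was at 1391 CPM in the Csf1-led cluster and *Vegfa* at 358 CPM, whereas *Igf1* was at 15.8 CPM in neutrophil-like cells against 1019 CPM in the other kept cells. *Tnfsf11* (RANKL), the osteoclast differentiation factor, had no UMI in the neutrophil-like cells.

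Chemokines were the largest signal group. The 17 genes summed to 40638 CPM in Csf1-led cells, 35827 in Stfa2l1-led, 14881 in Mmp8-led and 1631 in Camp-led cells, against 13439 CPM in C1q cells and 935 CPM in the other kept cells. *Cxcl2*, a ligand of CXCR2, had 24441 CPM in the Csf1-led and 23921 CPM in the Stfa2l1-led cluster, against 3091 CPM in C1q cells. *Ccl3* and *Ccl4* (macrophage inflammatory proteins) were at 10613 and 3399 CPM in the Csf1-led cluster, and *Ccl6* was highest in the Stfa2l1-led one at 3574 CPM. The monocyte-attracting *Ccl2* and *Ccl7* were instead at 655 and 647 CPM in C1q cells and at 13.2 and 4.39 CPM in neutrophil-like cells, and *Pf4* was at 1568 against 5.26 CPM. Among receptors, *Ccr1* (1856 CPM), *Ccrl2* (2101 CPM), *Cxcr2* and *Cxcr4* (885 CPM) were expressed by neutrophil-like cells, while *Ccr2* had 1 UMI and *Cx3cr1* none in them.

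The same clusters carried genes induced by NF-kappaB, the transcription factor downstream of IL-1 and TNF receptors. The 10 genes of that list summed to 11291 CPM in the Csf1-led and 1474 CPM in the Camp-led cluster. *Nfkbia*, which encodes its inhibitor, was at 5774 CPM and *Nfkbiz* at 3107 CPM in the Csf1-led cells. The 10 interferon response genes summed to 1386 CPM in Csf1-led cells, with *Rsad2* (361 CPM) and *Oasl2* (286 CPM) highest. *Rsad2* was among the genes that led this cluster, against 49.8 CPM in the other members. The 11 genes known to respond to tissue digestion summed to 18957 CPM in the Csf1-led and 5559 CPM in the Camp-led cluster, against 14975 CPM in the other kept cells. *Dusp1* alone went from 292 to 7559 CPM, so genes of the digestion response moved along the clusters with the cytokines, and their part in the cytokine levels was not tested.

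**Figure D4:**
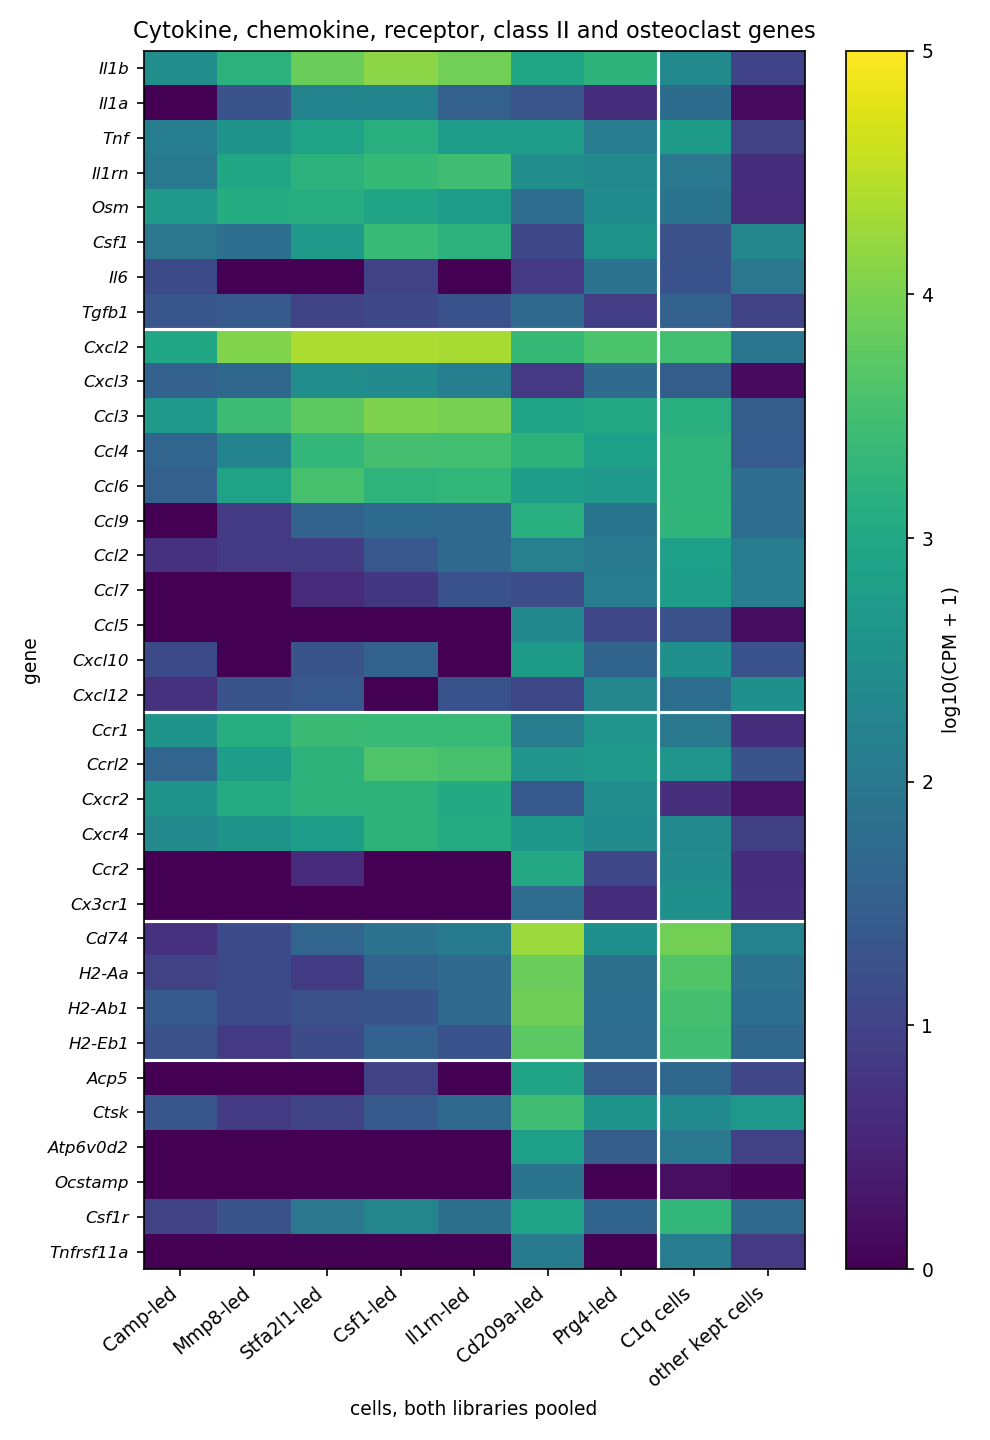
Level of cytokine, chemokine, chemokine receptor, class II MHC and osteoclast genes, as log10(CPM + 1) with both libraries pooled, in the 7 clusters, in C1q cells and in the other kept cells. *Il1b*, *Cxcl2* and *Ccl3* are brightest in the Stfa2l1-led, Csf1-led and Il1rn-led columns, and class II genes in the Cd209a-led column.

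The Cd209a-led cluster, 22 control and 51 Piezo1 fl/fl cells, was a mixture and had a median of 3469 UMIs. Class II genes were high in most of its cells: 49 of 73 had 30 or more UMIs over 7 class II genes, with a range of 34 to 733. *Cd74*, the invariant chain of class II, was at 17391 CPM, against 8491 CPM in C1q cells and 45.6 CPM in neutrophil-like cells. *H2-Ab1* was at 8197 CPM, *Ccr2*, the receptor of inflammatory monocytes, at 1056 CPM and *Cd209a*, a lectin of monocyte-derived dendritic cells, at 726 CPM in 28 of the 73 cells. Its 10 leading genes did not point to a single type. *Jchain* and *Igkc*, of antibody-secreting cells, led it by fold because 1 cell held 532 *Jchain* and 4004 *Igkc* UMIs.

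In this cluster, 8 cells, 2 control and 6 Piezo1 fl/fl, had 34 to 294 UMIs of osteoclast markers. All 8 had *Acp5* (tartrate-resistant acid phosphatase), *Atp6v0d2*, *Mmp9*, *Ctsk* (cathepsin K, which degrades bone collagen), *Nfatc1* and *Tnfrsf11a* (RANK), with medians of 28.5, 35.5, 51, 100, 18.5 and 3 UMIs per cell, and 7 of the 8 had *Ocstamp*, which osteoclasts need to fuse. Of these genes, *Acp5*, *Atp6v0d2*, *Mmp9* and *Ocstamp* are on the marker list that picked the cells, whereas *Ctsk*, *Nfatc1* and *Tnfrsf11a* are not. The other markers of the list were in fewer of the cells, *Dcstamp* in 5, *Oscar* in 3, *Itgb3* in 2 and *Calcr*, the calcitonin receptor, in 1. Their *Ctsk* was at 12050 CPM and their *Cd74* at 929 CPM. No other member reached 30 UMIs of these markers. Between 0.5 times that limit and the limit lay 12 neutrophil-like cells, and *Mmp9*, which is on the list, was at 1465 CPM in neutrophil-like cells while *Acp5* was at 2.63 CPM.

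Few cells carried lymphocyte markers. B cell markers reached 30 UMIs in 3 cells and plasma cell markers in 2, NK cell markers reached 4 UMIs in 2 cells, both control, and T cell markers reached 3 UMIs in 1 cell. Of the 6 early B lineage genes, *Dntt*, *Rag1* and *Rag2* had no UMI in any member. *Vpreb1* had 4 UMIs and *Igll1* 1, all Piezo1 fl/fl, and *Il7r*, which other lymphoid cells also express, had 19 control and 22 Piezo1 fl/fl UMIs. A further 2 cells of the cluster, both Piezo1 fl/fl, had 10 or more primary granule UMIs. Another 2, also Piezo1 fl/fl, had 100 or more UMIs of neutrophil markers, and 1 had 13 UMIs of plasmacytoid dendritic cell markers. Of the 73 cells, 9 reached the limit of none of these lists, class II and osteoclast included, and were not placed.

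The Prg4-led cluster, 7 control and 32 Piezo1 fl/fl cells, combined stromal and neutrophil transcripts. Its leading genes were of fibroblasts (*Prg4*, *Mfap4*, *Col6a3*, *Dpt* and *Itm2a*), its median of 6422 UMIs was the highest of the 7, and its cells had a median of 330 UMIs over 8 stromal genes. At the same time 9 of the 10 neutrophil markers were detected in it, with *S100a8* at 6746 CPM. All 27 members that Scrublet called doublets, 3 control and 24 Piezo1 fl/fl, lay in this cluster, which left 12 of its cells not called.

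Stromal RNA was counted over all members, the Prg4-led cells included. At least 5 stromal UMIs were found in 73 of 97 control cells (75.3%, 65.5% to 83.5%) and in 310 of 565 Piezo1 fl/fl cells (54.9%, 50.7% to 59.0%), and 10 members had none. Among the neutrophil-like clusters the Il1rn-led one held most, with a median of 13 stromal UMIs and 30 of its 33 cells at 5 or more. Medians were 8 in Camp-led, 4.5 in Mmp8-led and 4 in Stfa2l1-led and in Csf1-led cells. The median was 3.59 stromal UMIs per 1000 UMIs in control and 2.35 in Piezo1 fl/fl members, against 67.8 in both libraries for the other kept cells. In members with fewer than 100 stromal UMIs, *Col1a1* made up 37.4% of the stromal UMIs in control cells and 34.1% in Piezo1 fl/fl cells, close to the 39.7% and 36.3% in the other kept cells of each library. *Col1a2* made up 26.3% and 26.9%, against 28.9% and 27.8%. *Prrx1*, whose promoter drives the Cre used for the sort, was at 27.5 CPM in Piezo1 fl/fl and 33.3 CPM in control neutrophil-like cells, against 678 and 840 CPM in the other kept cells. In control neutrophil-like cells 1 UMI stands for 8.33 CPM, so their *Prrx1* level rests on few UMIs and the libraries cannot be compared on it. The part of free RNA in these counts was not tested.

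Neutrophil RNA also appeared outside the members, and more so in the Piezo1 fl/fl library. *S100a8* and *S100a9* together were at 97.1 CPM in the other kept cells of that library and at 13.9 CPM in those of the control. A UMI of either was found in 21.8% and 3.51% of them. At 1000 UMIs per cell, in the 1457 and 1450 cells of that depth among 1500 drawn at random per library, the shares were 6.04% and 0.966%. Within the members the pair was at 71498 and 23877 CPM.

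Summed over all members, 1239 genes reached a minimum of 100 UMIs and 50 CPM on the side where they were higher. Of the 964 that were higher in the Piezo1 fl/fl library, 120 were at least 2-fold higher (12.4%), and of the 275 higher in the control, 21 (7.64%). The minimum of 100 UMIs stands for 66.6 CPM in the Piezo1 fl/fl and 373 CPM in the control members, which hold 1501063 and 267788 UMIs, so the 2 directions did not have the same chance to pass. The Piezo1 fl/fl library had 85.1% of all calls, 64.1% when the median log2 ratio over the tested genes, 0.23, was set to 0, and 64.2% with a minimum of 400 CPM on either side.

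The 10 genes with the largest ratio towards the Piezo1 fl/fl library were *Jchain*, *Elane*, *Mpo*, *Prtn3*, *Fcnb* (ficolin B), *Cstdc5*, *Ctsg*, *Camp*, *Chil3* and *Ngp*. The first 7 had no UMI in the control members. With the control count set to 3 UMIs, the ratio was 22.8-fold for *Elane* and 20.2-fold for *Mpo*. These values are not lower limits, as the exact 95% intervals reach below them. *Elane* was found in 7 and *Mpo* in 5 of the 565 Piezo1 fl/fl cells. Their absence from 97 control cells therefore sets no minimum ratio. Several of the 7 genes came from few cells. All 532 *Jchain* UMIs came from 1 cell. The top 5 cells held 99.2% of the *Elane*, 100% of the *Mpo* and 95.8% of the *Prtn3* UMIs. Secondary granule genes were spread more widely in the Piezo1 fl/fl library, but not in the control. There, 5 cells held 97.9% of the *Ngp* and 88.9% of the *Chil3* UMIs, and 2 cells held all *Camp* UMIs. The intervals count UMIs of 1 cell as independent, so they do not hold this spread between cells. *Ngp* was found in 203 Piezo1 fl/fl cells and 9 control cells, at 14147 and 1068 CPM (log2 ratio 3.73, 3.56 to 3.90), and *Camp* in 109 and 2 cells, at 2156 and 85.9 CPM (4.62, 4.06 to 5.31). *Chil3* was at 1816 and 134 CPM. *Cstdc5* belongs to a family of near-identical stefin genes together with *Cstdc4* and *Stfa2l1*, so counts of its single members are uncertain.

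The 10 genes with the largest ratio towards the control were *Lyz1*, *Prdx1*, *Ccr2*, *Mgl2*, *H2-Aa*, *Cd74*, *Fcgr2b*, *H2-Eb1*, *Csf1r* and *Lpl*. *Cd74* was at 8697 CPM in control and 2611 CPM in Piezo1 fl/fl members (log2 ratio -1.74, -1.81 to -1.66), and *H2-Aa* at 3652 and 1092 CPM. Most of these genes belonged to the Cd209a-led cluster, whose share of the members was 22.7% in control and 9.03% for the Piezo1 fl/fl library. A single control cell held 230 of the 267 *Lyz1* UMIs, a different cell held 157 of the 215 *Prdx1* UMIs, and 5 control cells held 64.7% of the *Ccr2* UMIs. The log2 ratio of *Prdx1* was -2.53, and -0.77 when the cells called doublets by Scrublet were removed, which ended its 2-fold call. When the neutrophil-like class and the 2 unnamed clusters were given equal weight in both libraries, 1358 genes reached the minimum. Of these, 143 were 2-fold higher in the Piezo1 fl/fl library and again 21 in the control. Among them were 81 of the first 120 and only 4 of the first 21.

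Within the neutrophil-like cells, 127 of 623 genes (20.4%) were at least 2-fold higher in the Piezo1 fl/fl library and 21 of 165 (12.7%) in the control, with a median log2 ratio of 0.33 over the tested genes. These cells were mostly Csf1-led in the control, and Csf1-led or Stfa2l1-led among Piezo1 fl/fl cells. All 6 secondary granule genes were over 2-fold higher in the Piezo1 fl/fl cells, from *Lcn2* (log2 ratio 1.74, 1.56 to 1.94) to *Ngp* (3.20, 3.03 to 3.39) and, with the largest ratio, *Camp* (3131 against 192 CPM), and the group summed to 36542 CPM against 5238 CPM. A *Camp* UMI was found in 21.8% of Piezo1 fl/fl and 2.94% of control neutrophil-like cells, and in 20% and 3.08% of those with 1000 UMIs after thinning, which left out 17 and 3 cells. The shares in the other kept cells were 0.970% and 0.0591%.

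The late genes named here stayed under 2-fold. *Retnlg* (0.95), *Mmp8* (0.83), *Mmp9* (0.78) and *Cxcr2* (0.60) were above the median log2 ratio, and *Csf3r* (-0.66) below it. Of the 15 inflammatory cytokines, 5 reached the minimum level, and *Csf1* was 2-fold higher in the control at 2048 against 914 CPM (log2 ratio -1.17, -1.37 to -0.96). *Il1b* was at 10467 CPM in control and 6683 CPM in Piezo1 fl/fl cells (-0.65, -0.73 to -0.56), and *Ccl3* at 10633 and 5423 CPM (-0.97, -1.06 to -0.88). The digestion response genes, too, were at 16520 CPM in control and 12164 CPM in Piezo1 fl/fl cells, and their part in these differences was not tested. *Osm* had an interval that included 0 (0.26, -0.04 to 0.59). A UMI of *Il1b* was seen in 91.2% of control and 79.0% of Piezo1 fl/fl neutrophil-like cells, in 90.8% and 73.1% at 1000 UMIs, and in 0.945% and 2.55% of the other kept cells.

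In the Csf1-led cluster alone, with 47 control and 184 Piezo1 fl/fl cells, most of these ratios were close to 0. Of 222 genes that were higher in the Piezo1 fl/fl library, 7 were at least 2-fold higher (3.15%), and of 66 higher in the control, 1 (1.52%), although the minimum of 100 UMIs stands here for 350 and 1300 CPM. *Il1b* was at 13414 CPM in control and 13335 CPM in Piezo1 fl/fl cells (log2 ratio -0.01, -0.11 to 0.09), *Cxcl2* at 24735 and 24362 CPM (-0.02, -0.10 to 0.05) and *Tnf* had a ratio of -0.06 (-0.37 to 0.26). *Ccl3* (-0.22, -0.33 to -0.11) and *Csf1* (-0.25, -0.47 to -0.02) were still lower in Piezo1 fl/fl cells, and *Il1rn* was higher (0.27, 0.02 to 0.54). Under the minimum level, *Il1a* (28 control and 36 Piezo1 fl/fl UMIs) had -1.54 (-2.29 to -0.77) and *Ccl9* (11 and 9 UMIs) had -2.17 (-3.63 to -0.78). The 15 cytokines summed to 20653 and 20409 CPM. *S100a8*, a naming marker that was not left out of the clustering features, was at 13660 and 15103 CPM (0.14, 0.05 to 0.24). In the Stfa2l1-led cluster, which had 9 control cells, the cytokines summed to 12379 and 12036 CPM, and there the secondary granule genes were higher in the control, at 10527 CPM (9115 to 12096) against 5994 CPM (5717 to 6282).

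A few other genes also differed in the Csf1-led cluster. *Lcn2* was at 390 CPM in control and 1209 CPM in Piezo1 fl/fl cells (log2 ratio 1.61, 1.09 to 2.22), while it was at 4.90 and 11.6 CPM in the other kept cells of the libraries. *Cxcr2* had a ratio of 0.80 (0.47 to 1.16) and *Cxcr4*, the receptor for the marrow retention signal CXCL12, one of -0.39 (-0.65 to -0.12). The other 6 genes past 2-fold in the Piezo1 fl/fl library, named after their values were seen, were *Vim*, *Dhrs9*, *Gapdh*, *Siglece*, *Ripor2* and *Cstdc4*, and the 1 past it in the control was the mitochondrial gene *mt-Nd2*.

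**Figure D5:**
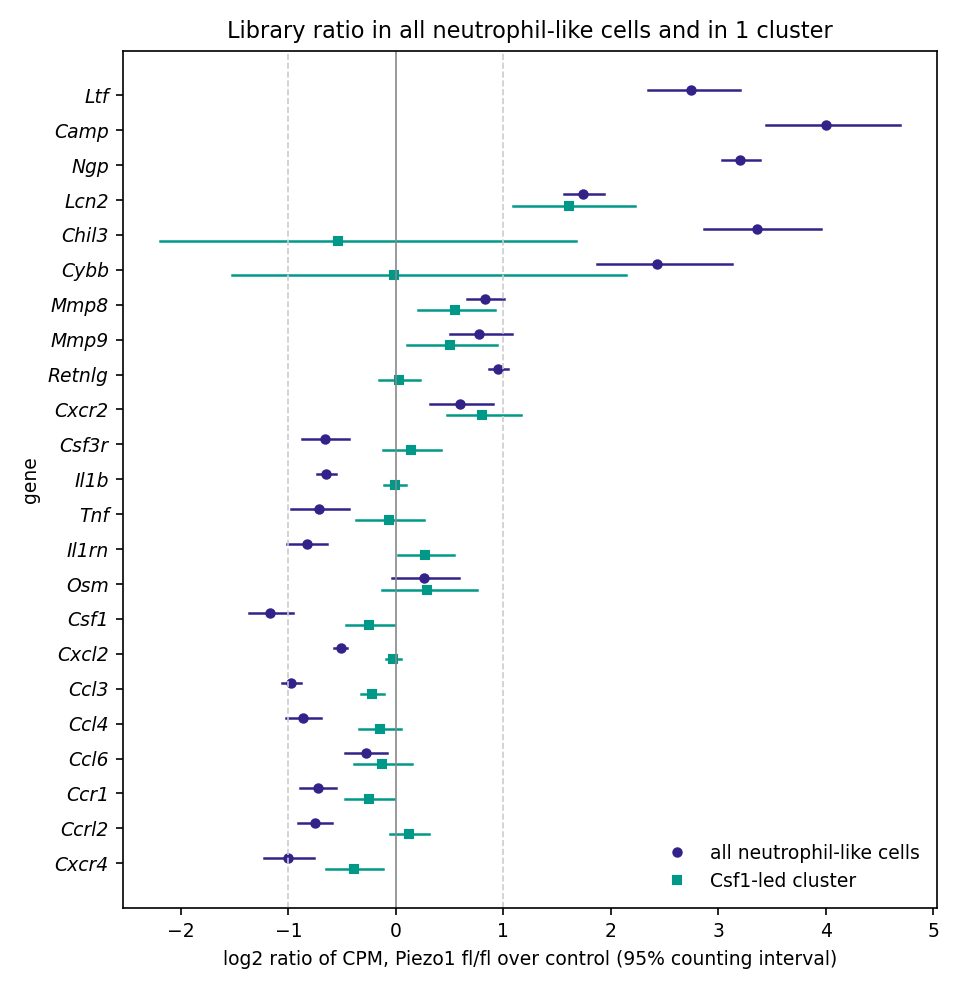
Log2 ratio of CPM, Piezo1 fl/fl over control, for granule, late neutrophil, cytokine, chemokine and receptor genes, with exact 95% counting intervals; circles are all neutrophil-like cells and squares the Csf1-led cluster, where genes with 3 or fewer control UMIs are not drawn. Circles of the granule genes lie far to the right and those of *Il1b*, *Csf1* and *Ccl3* to the left, while the squares of the cytokine and chemokine genes lie close to 0.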

How the data were processed

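For each library the authors deposited UMI counts as a gene by cell matrix; these counts are whole numbers that were not normalized. The submitters' processing notes name fastp, UMI-tools, STAR and Seurat (4.0.3), and the genome build is not given in the sources used here. From the counts, UMIs were summed over cells and expressed as CPM with exact Poisson intervals; intervals of shares are exact binomial and those of ratios exact conditional (95%). Members were clustered in Seurat 5.3.0 under R 4.3.3 (scale factor 10000, 2000 variable features of which 191 were left out, 30 principal components with a graph on 20, Louvain resolution 0.8, seed 0). Each cluster took the class whose markers had the highest mean log2 ratio over the other kept cells. This mean had to reach 2 and exceed the next class by 0.5, and 3 or more markers had to be detected in 10% of its cells and 2-fold above those cells. A cluster stayed unnamed if another class marked more of its 10 leading genes or its median stromal count was 100 UMIs or more. These naming limits were set after the clusters were seen. Scrublet in scanpy 1.11.5 (expected rate 0.05) called 46 of 5551 and 67 of 6784 barcodes doublets (0.829% and 0.988%), which were kept, their removal being an alternative. Where depth was equalised, each cell was thinned to 1000 UMIs. Ratios of single genes between libraries had 0.5 UMIs added to each count, and a count of 0 was read against 3 UMIs over the group. The ratio code was tested on simulated data. Genes are named if they select or name cells, lead a cluster (5 per cluster), belong to a described group with at least 10 UMIs, or are among the 10 extreme ratios per direction; mitochondrial, ribosomal protein, hemoglobin, sex-linked and antigen receptor genes were left out of those extremes. Some genes of the described groups are not reported here, though group sums hold all measured members. The members and lists were chosen with earlier results of these data known. With 1 library per genotype no test was made.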

Additional observations from a re-analysis of the deposited data

Results flagged for a closer look

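Barcodes with fewer than 500 detected genes were outside the selection. Among those with under 25% mitochondrial UMIs, 169 of 617 in the Piezo1 fl/fl library (27.4%, 23.9% to 31.1%) met the same leukocyte and C1q limits, against 31 of 459 in the control (6.75%, 4.63% to 9.45%), and this excess over the control library in data not used by the comparisons is why they are listed here. They held medians of 850 and 793 UMIs. The 10 neutrophil markers summed to 79002 CPM in the Piezo1 fl/fl and 50043 CPM in the control barcodes. *Il1b* was at 11255 and 8794 CPM, *Cxcl2* at 28361 and 25278 CPM and *Ngp* at 1760 and 39.4 CPM. The difference between the genotypes was not tested.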

How the results depend on the processing

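No paired analysis was possible because each genotype is 1 library, and for the same reason no replicate could be left out. The share of members stayed higher in the Piezo1 fl/fl library under every limit tried. It was 0.696% and 2.74% (control and Piezo1 fl/fl) with 1000 to 5000 genes, 1.30% and 6.55% with at least 10 leukocyte UMIs, and 9.20% in the Piezo1 fl/fl library with under 10% mitochondrial UMIs. The neutrophil-like share of members depended on the clustering. In the control it was 16.1% with 1000 to 5000 genes and 59.6% without Scrublet calls, and in the Piezo1 fl/fl library 51.8%, 75.6%, 75.0% at resolution 1.2 and 76.1% with each library clustered alone. In the last 3 of these a cluster of 52, 61 and 56 Piezo1 fl/fl cells, led by primary granule genes and *Fcnb*, went unnamed. Without Scrublet calls so did a cluster of 12 control and 25 Piezo1 fl/fl cells led by *Col1a1*, with *Il1rn* also among its leading genes. Without members with 5 or more stromal UMIs the share was 100% in both, as 1 of the 3 clusters then named combined class II genes with neutrophil markers. The number of genes tested changed with the setting, so the counts of 2-fold genes are not comparable without it. At a minimum of 30 UMIs and 20 CPM, 322 of 3154 tested genes were 2-fold higher in the Piezo1 fl/fl library. Without members with 5 or more stromal UMIs it was 63 of 300, and at a minimum of 400 CPM 34 of 432. The main setting had 120 of 1239. Genes 2-fold higher in the control numbered 131 of 3154 at the lower minimum and 2 of 300 without those members. With the median set to 0 they numbered 46 of 955. The Piezo1 fl/fl library had 71.1% of calls at the lower minimum and 96.9% without those members. Without those members *Csf1r* had a log2 ratio of 0.14, turned in direction, and the cause was not tested. *Fcnb* then had -0.0068, which rests on the 0.5 UMIs added to a control count of 0 and has no direction; *Jchain*, *Elane*, *Mpo*, *Prtn3*, *Ctsg*, *Lyz1* and *Lpl* had too few UMIs for a value. Without mitochondrial, ribosomal and hemoglobin genes, Piezo1 fl/fl neutrophil-like cells had 11007 CPM of cytokines, 26250 of chemokines, 37446 of secondary granule genes and 28339 of late genes. With the Csf1-led and Il1rn-led clusters alone, chosen after seeing the data as was the 400 CPM minimum, control cells had 18726 CPM of cytokines, 586 of secondary granule and 9584 of late genes, and Piezo1 fl/fl cells 19898 of cytokines, 40058 of chemokines, 1612 of secondary granule and 12619 of late genes. Over the alternatives of the main values, 42 moved by less than the value's interval (1.5 times for a count) and 30 by more.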
